A study of Homo sapiens with 12 samples.

Results

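Ubiquitin is attached to proteins by a chain of conjugating enzymes and ligases and taken off by deubiquitinases. The genes described here encode members of 6 such gene families that the authors listed as changed by lipopolysaccharide (LPS) in human THP-1 cells. A gene was taken when it stood in at least 1 of the authors' deposited tables of LPS-changed genes and its symbol began with TRIM or RNF (ligases, mostly of the RING type), FBXO, FBXL or FBXW (F-box proteins), USP or OTUD (deubiquitinases) or UBE2 (conjugating enzymes). USP18 was left out by rule. This gave 62 of the 3281 genes in the tables, namely 18 TRIM, 14 RNF, 9 F-box, 14 USP, 5 UBE2 and 2 OTUD genes. No FBXW gene was among them. USP9Y is included in the counts, and its values are not given here.

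RNA-seq was made from THP-1, a line of human leukaemic monocytes that the phorbol ester PMA turns into macrophage-like cells. The cells were S80A, which carry the NFKB1 gene with 1 serine of the NF-κB subunit p50 changed to alanine, or wild type (WT). All cells had received PMA at 25 ng/ml for 72 hr and rested for 4 days, and LPS was then given at 10 ng/ml for 3 hr or not at all (0 hr). The 4 groups of 3 libraries were therefore S80A at 3 hr, S80A at 0 hr, WT at 3 hr and WT at 0 hr. The study asked how this serine shapes LPS-induced transcription. How the S80A line was made, and whether from 1 clone, is not in the labels, so the amino acid change and the edited line cannot be told apart. Nor do the labels call replicates separate cultures, and p-values therefore measure the spread between these libraries, which may be technical.

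LPS is sensed by TLR4, and ubiquitin chains carry the signal from this receptor to NF-κB and the interferon regulatory factors. TRIM and RNF ligases build such chains on sensors and adaptors, deubiquitinases of the USP and OTU classes remove them, and F-box proteins choose the substrates of cullin ligases. Interferon produced after TLR4 signalling induces a further group of these genes, several of which restrict viruses.

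Expression is given in scaled reads, which are the read counts of a gene divided by 1 size factor per library. Reads on the 3281 genes were fewest, 1924562, in WT replicate 1 before LPS and most, 5789918, in S80A replicate 1 after it, and the ubiquitin genes took 1.61% to 2.08% of them. A principal component that held 17.6% of the variance separated the genotypes, with scores of -40.4 to -25.0 in the WT libraries. S80A replicate 1 scored 16.7 and 16.9 at the 2 times, against 32.7 to 46.7 in the other S80A libraries. On this component S80A replicate 1 was thus the S80A replicate nearest to WT. A limma fit without this replicate at both times was a choice made after seeing the data. Of the genotype differences below, it no longer called FBXO30, RNF166, TRIM24 and USP51 at 0 hr or TRIM16L and USP12-AS2 at 3 hr. It also gained calls. Among them were RNF19B and RNF217 (higher in S80A cells) and TRIM16 (lower) at 0 hr, and FBXL20 (higher) and RNF144B (lower) at 3 hr. Of all genes it called 766 the same way at both times, against 589 with this replicate. A change of 1 codon in NFKB1 cannot be checked from read counts. Of 18 macrophage markers, 4 were in the tables, and of these CD14 averaged 1479 ± 396 scaled reads in S80A cells at 3 hr and 3995 ± 2024 at 0 hr, and 875 ± 194 in WT cells at 3 hr and 2489 ± 180.4 at 0 hr (SD, n = 3). MERTK, a macrophage receptor, was called higher in S80A cells at both times, by 1.22 log2 at 0 hr and 2.63 at 3 hr. The other 3 had no call in limma on the deposited scaling without a replicate block. In that fit CD14 differed by 0.56 at 0 hr and 0.74 at 3 hr (adjusted p = 0.305 and 0.0721). CD163 differed by -1.11 and -0.53 (adjusted p = 0.0509 and 0.156), and FCGR3A by -1.16 and -0.0038 (adjusted p = 0.107 and 0.994). Limma with TMM scaling called CD163 lower in S80A cells at 0 hr, and with the replicate number as a block FCGR3A. EdgeR and DESeq2 called both lower at 0 hr, and CD163 lower at 3 hr. The part of these markers in the results below was not tested. Of 20 markers of other cell types CD79B and CD34 were in the tables, at group means of 35.5 scaled reads or less. The markers outside the tables were not analysed here.

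LPS moved these genes in both directions. The authors' deposited tables list 31 of the 62 as rising and 19 as falling in S80A cells, and 24 as rising and 15 as falling in WT cells. Of all 17486 genes that the authors' p-values imply were tested, 8.67% are listed as rising and 5.67% as falling in S80A cells, and 8.24% and 5.11% in WT cells. The tables chose the genes, so these counts describe them and carry no test. In both tables stood 27 of the genes, 17 rising and 10 falling, and none had opposite directions. A further 23 stood in the S80A table alone (14 rising, 9 falling) and 12 in the WT table alone (7 rising, 5 falling). The authors' thresholds were an absolute log2 fold change over 1 and an adjusted p-value under 0.01. The values nearest to the first were -1.004 for TRIM3 in S80A cells and -1.03 for TRIM58 in WT cells. In bulk RNA, fewer cells of a type and less RNA per cell cannot be told apart.

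**Figure D1:**
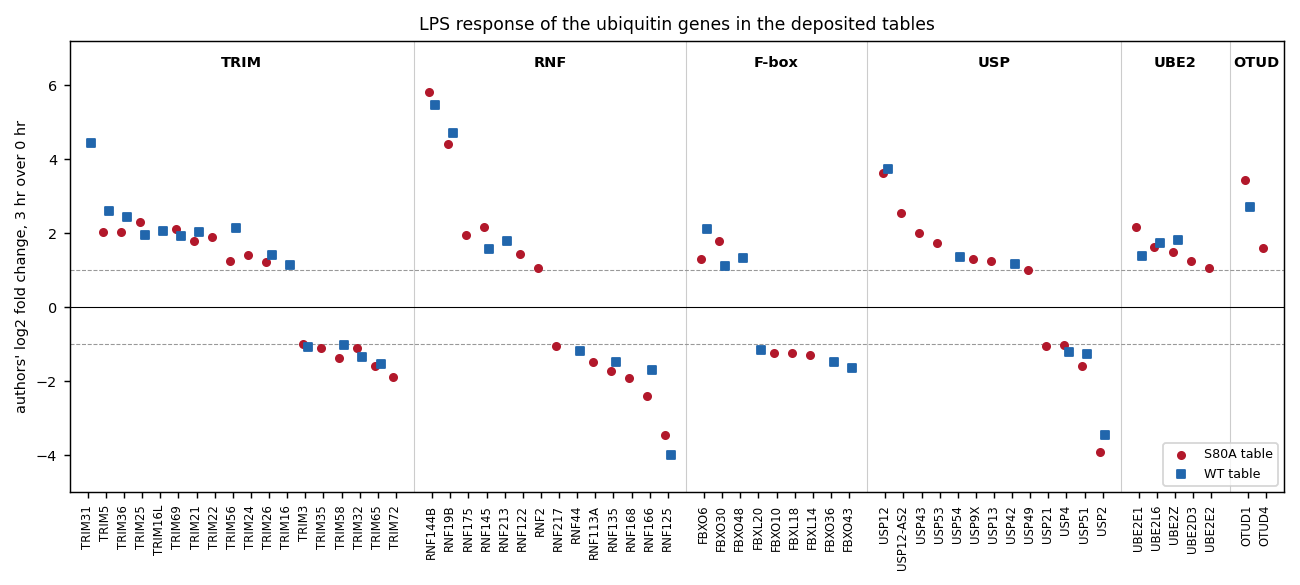
The authors' log2 fold changes of 3 hr over 0 hr, in S80A cells and in WT cells, for the genes by family, with genes absent from 1 table drawn for the other alone. RNF144B, RNF19B, USP12 and OTUD1 lie at the top in both genotypes, and USP2 and RNF125 at the bottom.

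Among the RING ligases named RNF, 7 are listed as rising in at least 1 genotype and 7 as falling. RNF144B, an RBR-type ligase, had 2616, 896 and 886 scaled reads in S80A cells at 3 hr and 23.9, 20.9 and 19.9 in S80A cells at 0 hr, and 1523, 1580.0 and 1651 in WT cells at 3 hr and 24.2, 38.6 and 28.2 in WT cells at 0 hr. Both genotypes were far higher at 3 hr than at 0 hr with no overlap between times, and S80A replicate 1 stood far above the other S80A libraries at 3 hr. The authors' deposited table gives log2 fold changes of 5.81 in S80A cells and 5.46 in WT cells, the largest of all 62 genes in each. RNF19B, also an RBR ligase and known from natural killer cells and macrophages as NKLAM, had 9649.7, 7159 and 5122 scaled reads in S80A cells at 3 hr and 277, 375 and 327 in S80A cells at 0 hr, and 6418, 5863 and 6828 in WT cells at 3 hr and 217, 228 and 258 in WT cells at 0 hr. Its 3 hr libraries were all above its 0 hr libraries in each genotype, and the authors' deposited log2 fold changes were 4.42 in S80A cells and 4.69 in WT cells. RNF145, a ligase of the endoplasmic reticulum that takes part in sterol control, was listed at 2.16 in S80A and 1.58 in WT cells in the authors' deposited tables.

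RNF125 is a ligase that marks the RNA sensor RIG-I for degradation. It had 15.7, 12.7 and 13.2 scaled reads in S80A cells at 3 hr and 199, 132 and 165 in S80A cells at 0 hr, and 8.22, 13.5 and 11.8 in WT cells at 3 hr and 204, 165 and 228 in WT cells at 0 hr. Every 3 hr library was far below every 0 hr library, in both genotypes. The authors' deposited log2 fold changes were -3.46 in S80A cells and -4.01 in WT cells, where it was the lowest value of the 62. RNF135 (Riplet), which activates RIG-I by ubiquitination, was listed at -1.73 in S80A and -1.48 in WT cells in the authors' deposited tables, so both of these RIG-I ligases fell. RNF166 had 371 ± 55.5 scaled reads in S80A cells at 3 hr and 1964 ± 171 at 0 hr, and 442 ± 30.8 in WT cells at 3 hr and 1459 ± 43.8 at 0 hr (SD, n = 3), a fall listed in both tables. The promoter windows of the gene that rose most and of the ligase that fell most in WT cells are printed to show the sequence at these strongly moving genes. They are 300 bases, 250 before to 50 after the start, from RefSeq on GRCh38.p14, both on the plus strand, and they hold no match to the 3 motifs searched.
RNF144B chr6:18387100-18387399: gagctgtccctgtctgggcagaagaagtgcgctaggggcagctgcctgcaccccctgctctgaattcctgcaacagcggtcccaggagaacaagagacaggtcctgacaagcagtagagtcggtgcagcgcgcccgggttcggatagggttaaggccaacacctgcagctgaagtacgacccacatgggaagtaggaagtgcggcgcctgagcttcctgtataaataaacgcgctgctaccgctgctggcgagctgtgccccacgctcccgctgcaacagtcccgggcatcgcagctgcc
RNF125 chr18:32018575-32018874: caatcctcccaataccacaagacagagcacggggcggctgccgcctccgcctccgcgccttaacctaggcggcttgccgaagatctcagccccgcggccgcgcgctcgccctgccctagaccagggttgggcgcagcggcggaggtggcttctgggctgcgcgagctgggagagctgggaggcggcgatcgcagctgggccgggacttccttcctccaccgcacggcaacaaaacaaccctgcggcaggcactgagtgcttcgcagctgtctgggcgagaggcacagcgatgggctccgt

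**Figure D2:**
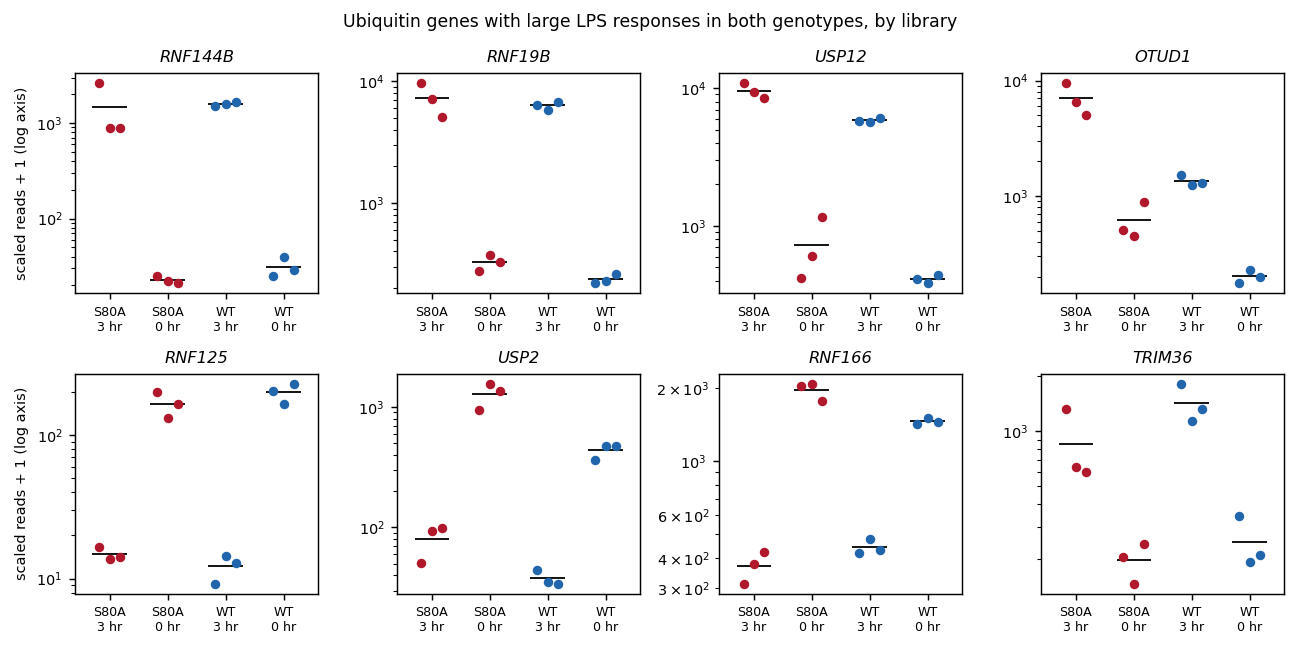
Scaled reads + 1 on a log axis in each library, 1 panel a gene, for S80A at 3 hr, S80A at 0 hr, WT at 3 hr and WT at 0 hr, with the bar at the group mean (n = 3). The 3 hr and 0 hr libraries of a genotype do not overlap in any of the 8 panels. The same is true of most genes in the tables, which were chosen for such changes.

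Of the 18 TRIM genes, 12 are listed as rising in at least 1 genotype and 6 as falling. The rising ones include several antiviral genes that interferon induces. TRIM5, which recognises the capsids of retroviruses, had 939.6, 1051 and 586 scaled reads in S80A cells at 3 hr and 139, 242 and 229.8 in S80A cells at 0 hr, and 1155, 1646 and 1562 in WT cells at 3 hr and 165, 320.1 and 202 in WT cells at 0 hr. Its libraries at 3 hr were all above those at 0 hr in each genotype, and the authors' deposited log2 fold changes were 2.02 in S80A cells and 2.59 in WT cells. TRIM36, a ligase best known from sperm and from frog embryos, had 1321, 637 and 599 scaled reads in S80A cells at 3 hr and 205, 146 and 241 in S80A cells at 0 hr, and 1824, 1144 and 1332 in WT cells at 3 hr and 344, 192 and 209.7 in WT cells at 0 hr. Here too the 3 hr libraries stood above the 0 hr libraries, with S80A replicate 1 the highest S80A library at 3 hr. Authors' deposited values were 2.04 in S80A cells and 2.44 in WT cells on the log2 scale. TRIM21, a cytosolic antibody receptor, was listed at 1.79 in S80A cells and 2.03 in WT cells in the authors' deposited tables, and TRIM25, a ligase that acts on RIG-I, at 2.31 in S80A cells and 1.94 in WT cells. TRIM56, an antiviral ligase, was listed at 1.24 in S80A cells and 2.14 in WT cells in the authors' deposited tables.

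Of the TRIM genes that fell, TRIM65, a ligase of the RNA sensor MDA5, had 127, 181 and 169 scaled reads in S80A cells at 3 hr and 466, 527 and 462 in S80A cells at 0 hr, and 308, 220.1 and 302 in WT cells at 3 hr and 734, 876 and 833 in WT cells at 0 hr. Its 3 hr libraries were all below its 0 hr libraries in each genotype, and at each time its S80A libraries were all below its WT libraries. In the authors' deposited tables its log2 fold changes were -1.60 in S80A cells and -1.54 in WT cells. TRIM32, a ligase mutated in a form of limb-girdle muscular dystrophy, was listed at -1.10 in S80A cells and -1.34 in WT cells in the authors' deposited tables, with means of 162 ± 43.6 scaled reads in S80A cells at 3 hr and 351 ± 65.7 at 0 hr, and 146 ± 19.1 in WT cells at 3 hr and 376 ± 48.7 at 0 hr (SD, n = 3).

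Promoter windows were in the RefSeq table for 47 of the 62 genes. The interferon response motif, spelled as GAAA, any 2 bases and GAAA and searched on both strands, was found in a window of 7 of these 47 genes, against 4.38% of the 27305 genes in the table. All 7 were among the 29 listed as rising (24.1% of them) and none among the 18 listed as falling. They were UBE2D3, OTUD4, TRIM26, TRIM21, TRIM5, TRIM69 and TRIM16, of which TRIM21, TRIM26, TRIM5 and TRIM69 are on a list of interferon-induced ubiquitin genes. The sequences at these 4 are printed to show the motif, in the direction of the gene, with the motif or its reverse complement in capitals. TRIM21 and TRIM26 each hold 2 overlapping matches, and TRIM69 is on the plus strand and the others on the minus strand of GRCh38.p14.
TRIM21 chr11:4393663-4393692: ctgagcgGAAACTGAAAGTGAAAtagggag
TRIM26 chr6:30213578-30213607: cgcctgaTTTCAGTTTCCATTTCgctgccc
TRIM5 chr11:5685082-5685111: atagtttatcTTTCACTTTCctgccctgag
TRIM69 chr15:44736456-44736485: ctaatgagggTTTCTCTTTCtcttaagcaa

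The NF-κB motif, spelled as GGGA, any 1 base and TTTCC, was in the windows of 0 of the 47 genes, against 0.678% of all genes, and the AP-1 motif TGANTCA was in those of RNF145 and TRIM5, against 9.37% of all genes. A match is a description of letters, and the absence of one says nothing on the factor. Shares over the other genes that LPS raised or lowered were not taken. RNF19B had no window in the table.

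Of the 9 F-box genes, 3 are listed as rising and 6 as falling in at least 1 genotype, and none passed a log2 fold change of 2 in S80A cells. FBXO6, which binds sugar-bearing glycoproteins, had 406, 461 and 263 scaled reads in S80A cells at 3 hr and 189, 161 and 99.7 in S80A cells at 0 hr, and 661, 827 and 850.0 in WT cells at 3 hr and 146, 198 and 181 in WT cells at 0 hr. It was higher at 3 hr in every library of both genotypes, with authors' deposited log2 fold changes of 1.30 in S80A cells and 2.11 in WT cells. FBXO48 was listed as rising in the WT table alone, at 1.32 in the authors' deposited table, and FBXL18 as falling in the S80A table alone, at -1.25. Limma called the same direction in the genotype whose table does not list them, at 1.07 log2 in S80A cells for FBXO48 (adjusted p = 0.00504) and -0.80 in WT cells for FBXL18 (adjusted p = 0.00464).

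All 5 conjugating enzymes are listed as rising, 5 in S80A cells and 3 in WT cells, and none as falling. UBE2L6, which passes the ubiquitin-like protein ISG15 to its targets, had 2480.3, 4267 and 2853 scaled reads in S80A cells at 3 hr and 789.8, 1435 and 779 in S80A cells at 0 hr, and 2377, 3832 and 3570.4 in WT cells at 3 hr and 635, 1324 and 887 in WT cells at 0 hr. UBE2Z, which takes ubiquitin from the activating enzyme UBA6, had 6182, 5194 and 4748 scaled reads in S80A cells at 3 hr and 1878, 2036 and 1822 in S80A cells at 0 hr, and 4988, 6133 and 6374 in WT cells at 3 hr and 1659, 1609 and 1658 in WT cells at 0 hr. In both genes the 3 hr libraries were all above the 0 hr libraries within a genotype. S80A and WT libraries overlapped at each time for UBE2L6 and at 3 hr for UBE2Z, whose S80A libraries lay above the WT libraries at 0 hr without a call (0.22 log2, adjusted p = 0.159). The authors' deposited log2 fold changes were 1.62 in S80A and 1.73 in WT cells for UBE2L6. For UBE2Z the authors' deposited tables give 1.48 in S80A and 1.82 in WT cells. The genes for ubiquitin itself and for its activating enzymes, 15 on the list used, were in neither table.

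Both OTUD genes and 9 of the 14 USP genes are listed as rising in at least 1 genotype. USP12, a deubiquitinase that works with WDR48, had 10861, 9458 and 8532 scaled reads in S80A cells at 3 hr and 419, 608 and 1168 in S80A cells at 0 hr, and 5806, 5719 and 6047 in WT cells at 3 hr and 411, 382 and 440.4 in WT cells at 0 hr. Each 3 hr library was far above each 0 hr library, and the S80A libraries at 3 hr were all above the WT libraries at 3 hr. Authors' deposited log2 fold changes were 3.63 in S80A cells and 3.74 in WT cells. USP12-AS2, annotated as an antisense RNA, lies beside USP12 without overlapping it and is the only gene here that does not code for protein. It was listed at 2.53 in the authors' deposited S80A table, with means of 16.1 ± 3.80 scaled reads in S80A cells at 3 hr and 2.21 ± 0.725 at 0 hr (SD, n = 3).

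USP2 fell more than any other deubiquitinase. It had 49.3, 93.2 and 97.1 scaled reads in S80A cells at 3 hr and 933, 1559.8 and 1364 in S80A cells at 0 hr, and 43.5, 34.3 and 33.2 in WT cells at 3 hr and 359, 477 and 474 in WT cells at 0 hr. The 3 hr libraries lay far below the 0 hr libraries in both genotypes, and the S80A libraries were all above the WT libraries at each time. In the authors' deposited tables the log2 fold change was -3.93 in S80A cells, the lowest of the 62 there, and -3.47 in WT cells. USP51, a deubiquitinase of histones, fell too, with -1.58 in S80A cells and -1.28 in WT cells in the authors' deposited tables, and means of 63.2 ± 5.96 scaled reads in S80A cells at 3 hr, 193 ± 36.3 in S80A cells at 0 hr, 50.3 ± 5.71 in WT cells at 3 hr and 124 ± 8.34 in WT cells at 0 hr (SD, n = 3).

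A gene listed in 1 table may still have changed in the other genotype below the authors' thresholds. Limma, on log2(scaled reads + 1) with Benjamini-Hochberg adjustment over all 3281 genes, called 7 of the 12 genes listed in WT alone as changed the same way in S80A cells, against 52.4% of the 773 genes listed so. FBXO36, RNF213, TRIM16 and USP54 were among those not called, and with TMM scaling, edgeR or DESeq2 the count was 4. The 7 include TRIM31, which rested on 7 reads in S80A cells at 3 hr and 2 at 0 hr. The exact 95% counting interval of its ratio, 0.834 to 43.2, includes no change. Of the 23 genes listed in S80A alone, 15 changed the same way in WT cells, against 57.3% of 946 genes. FBXL14, FBXO10, RNF122, RNF168, RNF175, RNF217, USP43 and USP53 were the 8 not called in WT cells. The count for S80A alone was 9 with edgeR, 7 without WT replicate 1 at 3 hr, 9 without WT replicate 2 at 0 hr and 9 without WT replicate 3 at 3 hr.

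The genotypes differed in these genes before LPS. Limma on the 6 libraries at 0 hr called 10 of the 62 genes higher in S80A than in WT cells, against 20.1% of all 3281 genes, and 5 lower, against 10.6%. Both shares lie near those of all genes. The median difference was 0.14 log2 over the 62 genes and 0.19 over all genes, and whether this shift comes from the deposited scaling was not tested. With TMM scaling, which centred all genes at 0.01, 7 were higher and 7 lower. With edgeR 6 were higher and 9 lower, and with DESeq2 7 and 9. The counts depended on single libraries and fell to 4 higher and 3 lower without WT replicate 1, 5 and 2 without WT replicate 2, 3 and 2 without WT replicate 3, and 4 and 3 without S80A replicate 2.

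RNF122, a membrane-bound RING ligase, had 227, 390.1 and 353 scaled reads in S80A cells at 0 hr and 55.4, 65.1 and 74.2 in WT cells at 0 hr. Every S80A library was above every WT library, and limma gave a difference of 2.27 ± 0.25 log2 (SE, adjusted p = 0.00458). OTUD1, an OTU deubiquitinase, had 509.9, 451 and 884 in S80A cells and 174, 229 and 197 in WT cells at 0 hr, a difference of 1.56 ± 0.29 (SE, adjusted p = 0.0155) without overlap. USP53, a USP family protein of epithelial tight junctions, had 1028, 1040.1 and 1817 in S80A cells and 554, 335 and 446 in WT cells at 0 hr, a difference of 1.51 ± 0.31 (SE, adjusted p = 0.0196). The S80A libraries of both genes lay above all WT libraries, with S80A replicate 3 the highest. Neither gene kept its call without WT replicate 3, nor OTUD1 without WT replicate 1, nor USP53 without WT replicate 2 or S80A replicate 2. For USP2, whose values at 0 hr are given above, limma gave 1.54 ± 0.24 (SE, adjusted p = 0.0105).

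TRIM72, known as MG53 for membrane repair in muscle, had 25.9, 30.2 and 30.4 scaled reads in S80A cells and 4.33, 1.61 and 4.84 in WT cells at 0 hr, a difference of 2.78 ± 0.34 log2 (SE, adjusted p = 0.00554) at few reads. USP42 had 275, 352 and 354 in S80A cells and 199, 212 and 214 in WT cells at 0 hr, at 0.64 ± 0.14 (SE, adjusted p = 0.0246). TRIM3, RNF166, USP51 and FBXO30 were the other 4 higher genes, with differences of 0.98, 0.43, 0.62 and 0.63 log2. The calls of USP42, RNF166, USP51 and FBXO30 were each lost under at least 1 setting that kept most libraries, such as another scaling or tool. With the replicate number as a block, the adjusted p was 0.0721 for RNF166 and 0.0544 for USP51. RNF122, TRIM72, USP2, FBXO43 and RNF175 were the 5 of 15 genes that kept the call in every alternative, with each library left out included.

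Of the genes lower in S80A cells at 0 hr, FBXO43, an inhibitor of the anaphase-promoting complex in oocytes, had 27.9, 19.4 and 18.9 scaled reads in S80A cells and 84.9, 93.3 and 115 in WT cells. RNF175 had 34.9, 39.6 and 40.9 in S80A cells and 114, 186 and 224 in WT cells at 0 hr. Both were lower in every S80A library, with differences of -2.11 ± 0.21 log2 for FBXO43 (SE, adjusted p = 0.00374) and -2.10 ± 0.27 for RNF175 (SE, adjusted p = 0.00638). TRIM65 differed by -0.74 ± 0.13 (SE, adjusted p = 0.0118). TRIM24, a chromatin reader and cofactor of nuclear receptors, had 582, 554 and 648 in S80A cells and 784, 799 and 786 in WT cells at 0 hr, at -0.41 ± 0.11 (SE, adjusted p = 0.0405). With the replicate number as a block TRIM24 was not called (adjusted p = 0.0765).

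After LPS the differences were more numerous. Limma on the 6 libraries at 3 hr called 17 of the 62 genes higher in S80A cells, against 29.2% of all genes, and 12 lower, against 17.7%, so here too the shares lie near those of all genes. The median difference was 0.11 log2 over the 62 genes and 0.19 over all genes. With TMM scaling 13 were higher and 16 lower, with all genes at -0.01, with edgeR 14 and 19, and with DESeq2 15 and 19. Without WT replicate 2 at 3 hr the counts were 10 higher and 7 lower, and without WT replicate 3 they were 11 and 6. By family, 2 of 18 TRIM genes were higher and 5 lower, 2 of 14 RNF genes higher and 2 lower. Of 9 F-box genes 2 were higher and 4 lower, and of 14 USP genes 6 were higher and 1 lower. The 6 include the non-coding USP12-AS2. Of 5 UBE2 genes 3 were higher, as were both OTUD genes, and none of these 2 families was lower. At both times, 7 genes were higher in S80A cells (FBXO30, OTUD1, RNF122, TRIM3, TRIM72, USP2 and USP53) and 2 lower (FBXO43 and TRIM65). Of all 3281 genes, limma called 589 (17.95%) the same way at both times. The split of the 62 genes was 5 higher and 2 lower with TMM scaling, 4 and 5 with edgeR, and 5 and 5 with DESeq2.

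**Figure D3:**
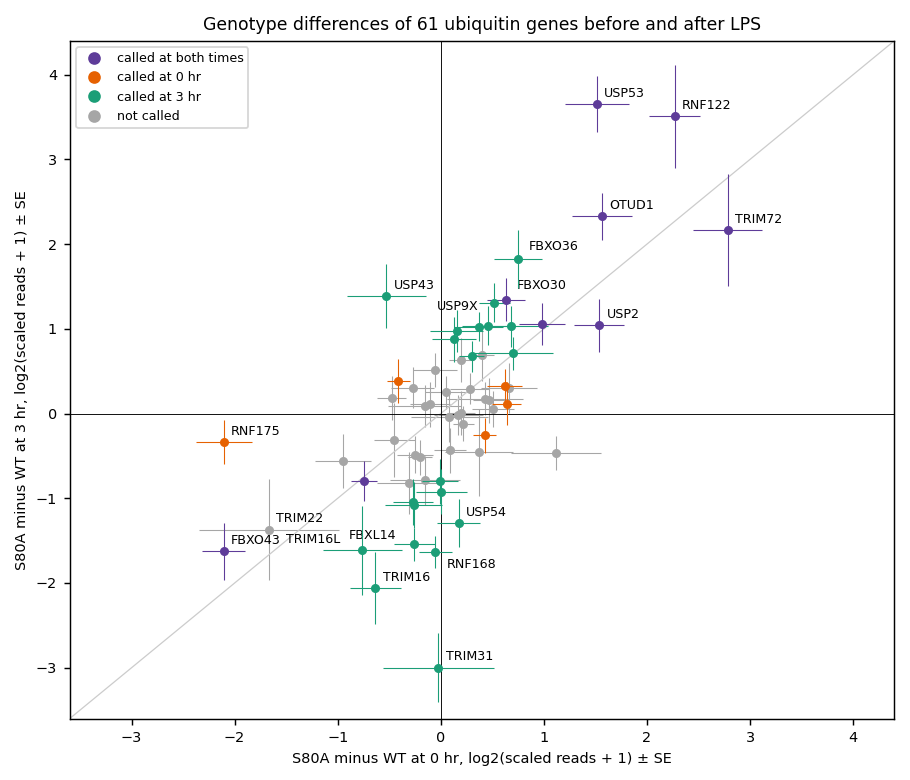
The limma difference S80A minus WT (± SE) at 3 hr against that at 0 hr, on the log2(scaled reads + 1) scale, with each point 1 gene and the diagonal marking equal differences. USP53, RNF122 and OTUD1 lie highest at 3 hr, TRIM31 lowest, and TRIM72 farthest right at 0 hr.

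USP53 had the largest difference at 3 hr. It had 4124, 4329 and 4849.7 scaled reads in S80A cells and 566, 249 and 306 in WT cells at 3 hr. The lowest S80A library stood far above the highest WT library, and the difference was 3.65 ± 0.33 log2 (SE, adjusted p = 9.09e-04). OTUD1, at 9474, 6547 and 5044 in S80A cells and 1526, 1244 and 1304 in WT cells at 3 hr, differed by 2.33 ± 0.27 (SE, adjusted p = 0.00157). RNF122 had 317, 1048 and 1424 in S80A cells and 39.9, 85.1 and 91.0 in WT cells at 3 hr, a difference of 3.51 ± 0.61 (SE, adjusted p = 0.00437). All 3 genes were without overlap between genotypes, and S80A replicate 1 was the highest S80A library for OTUD1 and the lowest for RNF122 and USP53.

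OTUD4, a deubiquitinase of the OTU class, had 3198, 3340.3 and 3097 scaled reads in S80A cells and 1630.3, 1567 and 1533 in WT cells at 3 hr. USP9X, a deubiquitinase with many substrates, had 4312, 6277 and 6342 in S80A cells and 2395, 2184 and 2153 in WT cells at 3 hr. FBXO36 had 62.8, 38.0 and 45.6 in S80A cells and 12.9, 8.30 and 19.3 in WT cells at 3 hr. In each of these the S80A libraries were all higher, and limma gave 1.03 ± 0.17 log2 for OTUD4 (SE, adjusted p = 0.00419), 1.31 ± 0.23 for USP9X (adjusted p = 0.00431) and 1.82 ± 0.34 for FBXO36 (adjusted p = 0.00578). USP9X has a close homologue, USP9Y, and whether reads were divided between the 2 genes was not tested.

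Among the conjugating enzymes, UBE2D3, which serves many RING ligases, had 10164, 7692 and 6571 scaled reads in S80A cells and 4354, 3551 and 3859 in WT cells at 3 hr. UBE2E1 had 8801, 5760.4 and 5351 in S80A cells and 3511, 3011 and 3407 in WT cells at 3 hr, and both were higher in every S80A library, by 1.04 log2 for UBE2D3 (adjusted p = 0.0112) and 0.97 for UBE2E1 (adjusted p = 0.0183). UBE2E2 was higher by 0.67 (adjusted p = 0.0206). The other 7 higher genes were FBXO30, RNF2 (the ligase of the Polycomb complex that marks histones), TRIM3, USP12, USP43, USP2 and USP12-AS2, at 0.71 to 1.39 log2, and TRIM72, at 2.17 log2. The calls of UBE2E2, USP12, USP2, USP12-AS2, TRIM72 and, among the lower genes, TRIM65 were each lost under at least 1 other setting that left out no single library. TRIM72 rested on 18 reads in S80A and 2 in WT cells at 3 hr, a ratio of 9.53 with an exact 95% counting interval of 2.28 to 84.7.

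RNF168, which marks histones around DNA breaks, was lower in S80A cells at 3 hr, with 99.8, 81.7 and 81.5 scaled reads in S80A cells and 278, 274 and 267 in WT cells. FBXL14, an F-box protein that targets the factor SNAI1, had 46.0, 58.7 and 58.7 in S80A cells and 159, 155 and 165 in WT cells at 3 hr. Neither overlapped between genotypes, and the differences were -1.63 ± 0.19 log2 for RNF168 (SE, adjusted p = 0.00148) and -1.54 ± 0.19 for FBXL14 (SE, adjusted p = 0.00181). FBXL14 overlaps WNT5B on the opposite strand, which had 11.32 ± 6.75 scaled reads in S80A cells at 3 hr and 27.27 ± 13.8 at 0 hr, and 61.996 ± 14.0 in WT cells at 3 hr and 10.96 ± 2.35 at 0 hr (SD, n = 3). Reads of such a pair can be told apart only by strand, and the strand setting of the counting is not given in the sources used here. USP54 had 197, 122 and 114 in S80A cells and 408, 353 and 285 in WT cells at 3 hr, at -1.29 ± 0.28 (SE, adjusted p = 0.00992).

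Several TRIM genes were lower in S80A cells at 3 hr. TRIM31, a ligase that acts on the antiviral adaptor MAVS, had 2.24, 4.60 and 1.20 scaled reads in S80A cells and 17.6, 33.2 and 31.0 in WT cells. TRIM16, a ligase with a role in autophagy, had 56.1, 34.5 and 69.5 in S80A cells and 121, 298 and 284 in WT cells at 3 hr. Both were below WT in every S80A library, with differences of -3.00 ± 0.41 log2 for TRIM31 (SE, adjusted p = 0.00206) and -2.06 ± 0.43 for TRIM16 (SE, adjusted p = 0.00837). TRIM16L, a near copy of TRIM16 with which it may share reads, was lower too, at -1.62 log2 (adjusted p = 0.0421). TRIM56 and TRIM65 were lower at -0.92 and -0.80 log2. The remaining lower genes were FBXO43 at -1.63, FBXO6 at -1.08, RNF113A, a part of the spliceosome, at -1.04 and FBXO10 at -0.80 log2. Of the 29 differences at 3 hr, 14 kept the call in every alternative, with each library left out included: those of FBXO30, FBXO36, OTUD1, OTUD4, RNF122, UBE2D3, USP53 and USP9X, which were higher, and FBXL14, FBXO43, RNF168, TRIM16, TRIM31 and USP54, which were lower.

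**Figure D4:**
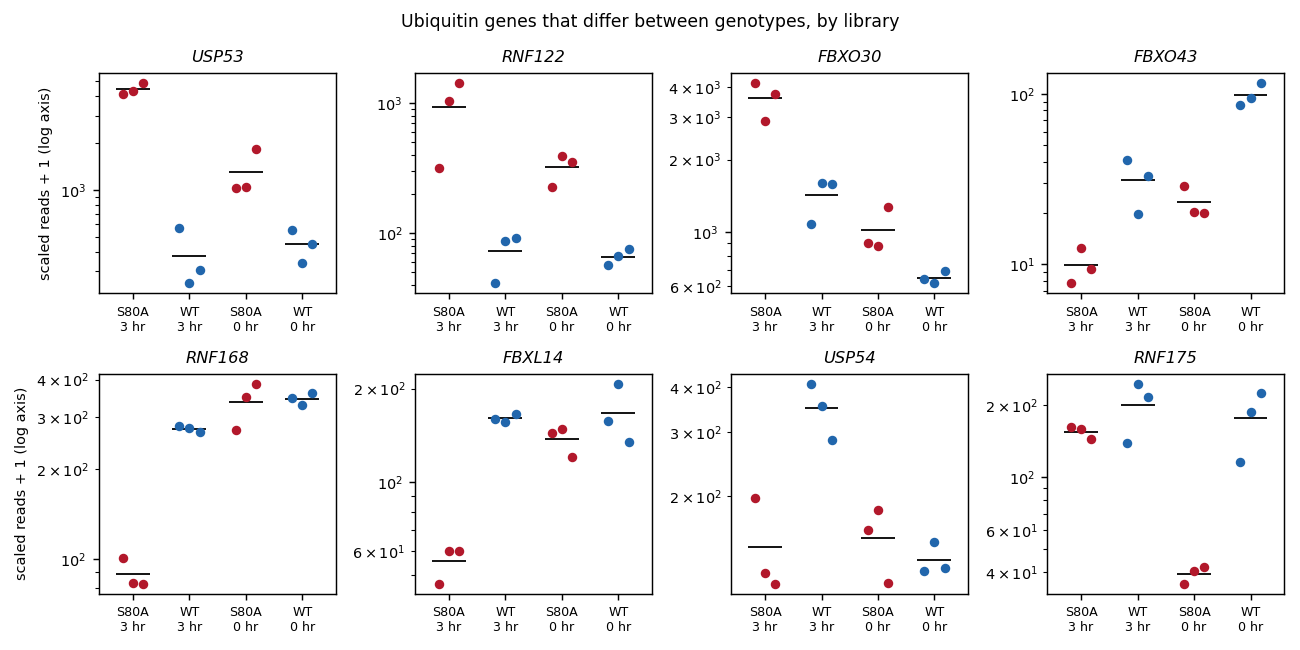
Scaled reads + 1 on a log axis in each library, 1 panel a gene, for S80A at 3 hr, WT at 3 hr, S80A at 0 hr and WT at 0 hr, with the bar at the group mean (n = 3). The S80A libraries at 3 hr lie above all WT libraries at 3 hr for USP53, RNF122 and FBXO30 and below them for FBXO43, RNF168, FBXL14 and USP54, and overlap them for RNF175.

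Whether the LPS response itself differed was tested with the interaction of genotype and time in limma over all 12 libraries. Of the 62 genes, 3 had a higher log2 response in S80A than in WT cells, against 7.19% of all genes, and 5 a lower one, against 6.95%. All 8 were listed in 1 table only, a choice that favours such a difference. Of all genes, limma called 22.2% of the 946 listed in the S80A table alone, 17.6% of the 773 in the WT table alone and 7.55% of the 1562 in both. For the 27 ubiquitin genes in both tables limma called 0, with 3 at an unadjusted p under 0.05 (RNF166, TRIM56 and UBE2E1), edgeR called 0, with 6 at an unadjusted p under 0.05, and DESeq2 called 1 (RNF166), against 12.5% of the 1562. The higher count was 5 without S80A replicate 1 at 3 hr, and 6 without that replicate at both times. The lower count was 3 without any 1 of WT replicate 1 or 3 at 0 hr, WT replicate 2 at 3 hr, S80A replicate 2 at 0 hr and S80A replicate 2 or 3 at 3 hr. RNF168, FBXL14, USP53 and RNF175 kept the call in each of the 20 alternatives. USP54 lost it without any 1 of those 6 libraries, and TRIM31 with edgeR, DESeq2 or a pseudocount of 0.5. USP43 lost it with TMM scaling, RNF217 with a pseudocount of 0.5, and both without most single libraries.

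RNF168 (chr3:196468783-196503768, minus strand), FBXL14 (chr12:1565993-1594165, minus strand) and USP53 (chr4:119212587-119295517, plus strand) are protein-coding genes of GENCODE release 29 on GRCh38 that stand in the S80A table alone. RNF168 had overlapping values before LPS, with 271, 349.8 and 387 scaled reads in S80A cells and 346, 328 and 359.8 in WT cells at 0 hr. Its log2 response was -1.92 in S80A and -0.33 in WT cells, a difference of -1.58 ± 0.26 (SE, adjusted p = 0.00413). FBXL14 had responses of -1.31 in S80A and -0.03 in WT cells, a difference of -1.28 ± 0.29 (SE, adjusted p = 0.0151). For USP53 the response was 1.83 in S80A and -0.31 in WT cells, a difference of 2.14 ± 0.47 (SE, adjusted p = 0.0142). The genotypes already differed in USP53 at 0 hr, and the difference grew with LPS.

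RNF175 had a response of 1.97 log2 in S80A and 0.20 in WT cells, a difference of 1.77 ± 0.39 (SE, adjusted p = 0.0144). With 160.3, 158 and 143 scaled reads in S80A cells and 137, 245 and 215 in WT cells at 3 hr the genotypes overlapped, while at 0 hr S80A cells had been lower. USP43 had 46.0, 107 and 112 scaled reads in S80A cells at 3 hr and 22.9, 24.0 and 13.6 in S80A cells at 0 hr, and 24.7, 35.3 and 33.2 in WT cells at 3 hr and 17.3, 33.8 and 40.3 in WT cells at 0 hr. It responded by 2.01 log2 in S80A and 0.09 in WT cells, a difference of 1.92 ± 0.56 (SE, adjusted p = 0.0452).

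TRIM31 rested on 7 reads in S80A cells at 3 hr against 2 at 0 hr, a ratio of 4.38 with an exact 95% counting interval of 0.834 to 43.2, and on 76 reads in WT cells at 3 hr against 2 at 0 hr, a ratio of 50.3 (13.5 to 423). The intervals cover counting error only. The difference of its responses was -2.98 ± 0.69 log2 (SE, adjusted p = 0.0181). USP54 had responses of -0.09 in S80A and 1.37 in WT cells, a difference of -1.47 ± 0.37 (SE, adjusted p = 0.0251). RNF217, an RBR ligase that degrades the iron exporter ferroportin in mice, had 146, 156 and 128 scaled reads in S80A cells at 3 hr and 160.3, 258 and 502 in S80A cells at 0 hr, and 177, 226 and 195 in WT cells at 3 hr and 107, 129 and 145 in WT cells at 0 hr. Its response was -0.94 in S80A and 0.65 in WT cells, a difference of -1.59 ± 0.48 (SE, adjusted p = 0.0488), with S80A libraries widely spread at 0 hr.

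The interferon-induced list of 16 ubiquitin genes had 11 in the tables, of which TRIM5, TRIM21, TRIM22, TRIM25, TRIM26, TRIM69, RNF213, UBE2L6 and FBXO6 belong to the 62 and HERC5 and HERC6 do not. Each table lists 10 of the 11 as rising and none as falling. At 3 hr limma called 1 of the 11 lower in S80A cells (FBXO6), against 17.7% of all genes, and none higher, against 29.2%. At 0 hr it called 1 lower (HERC5), against 10.6%, and none higher, against 20.1%, and for the response none. The lower count at 3 hr moved with the tool: it was 5 with TMM scaling (FBXO6, TRIM5, TRIM21, HERC5 and HERC6) and 7 with edgeR and with DESeq2, which added TRIM22 and TRIM25. At 0 hr it was 2 with TMM scaling (HERC5 and TRIM25) and 4 with edgeR and with DESeq2 (HERC5, HERC6, TRIM22 and TRIM25). None of these called any of the 11 higher. TRIM25 narrowly missed the threshold at 0 hr, with -0.95 ± 0.28 log2 (SE, adjusted p = 0.0517). TRIM5 and TRIM22 overlap on opposite strands and could share reads. These genes varied between replicates of a genotype. TRIM22, an antiviral ligase, had 1000.2, 1464 and 367 scaled reads in S80A cells at 3 hr and 137, 370.0 and 118 in S80A cells at 0 hr, and 1148, 3024 and 2681 in WT cells at 3 hr and 265, 1040.0 and 706 in WT cells at 0 hr, with a wide spread within each group and overlap of the genotypes at each time. RNF213, a giant ligase with an ATPase part, had 5060.3, 12866 and 4878 scaled reads in S80A cells at 3 hr and 3137, 5819 and 2477 in S80A cells at 0 hr, and 5299.7, 14946 and 10431 in WT cells at 3 hr and 2735, 2866 and 2655 in WT cells at 0 hr. Replicate 2 was the highest library in each of the 4 groups, by little in WT cells at 0 hr.

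Summed over these 9 genes, the scaled reads were 23897, 34981 and 18287.5 in S80A cells at 3 hr and 7613, 11450.4 and 5927 in S80A cells at 0 hr, and 24143, 45567 and 37879.7 in WT cells at 3 hr and 7743, 11089 and 9143 in WT cells at 0 hr. Replicate 2 held the highest value of 8 of the 9 genes in S80A cells at 3 hr and of 8 at 0 hr, and of 7 in WT cells at 3 hr and of 9 at 0 hr. The lowest value was in S80A replicate 3 for 7 genes at 3 hr and 8 at 0 hr, and in WT replicate 1 for 9 genes at 3 hr and 8 at 0 hr. Within a group, most of the 9 genes were thus high or low in the same libraries, and the part of this in the genotype comparisons was not tested.

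**Figure D5:**
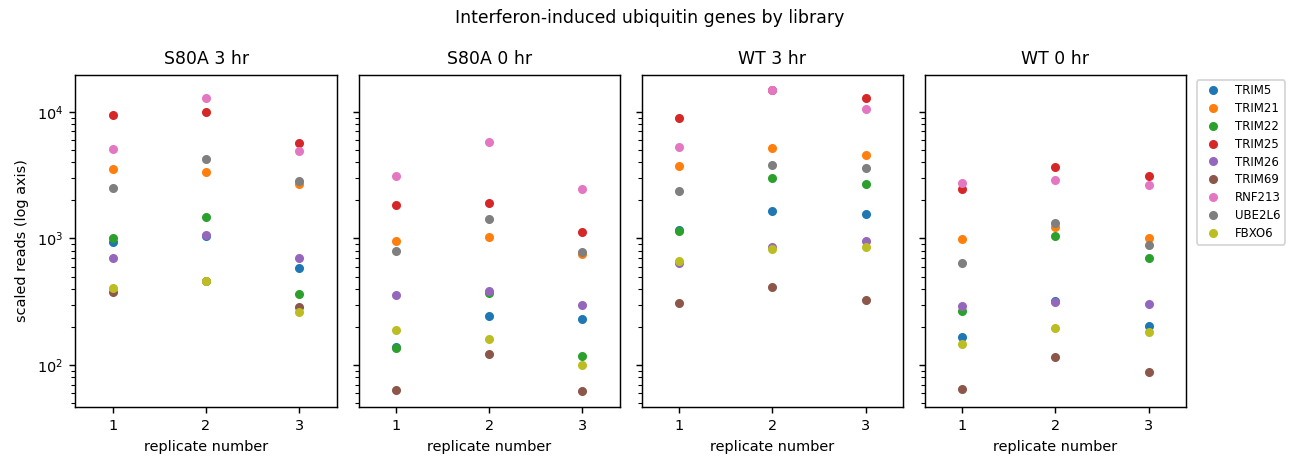
Scaled reads on a log axis of the 9 interferon-induced genes in each library, grouped as S80A at 3 hr, S80A at 0 hr, WT at 3 hr and WT at 0 hr, with 1 colour a gene. Replicate 2 is the highest for 7 to 9 of the genes in each group.

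Other genes of the pathway were counted from lists. Of 42 ubiquitin genes of NF-κB and TLR signalling, 10 were in the tables, 7 of them among the 62. The S80A table lists 7 of the 10 as rising and 3 as falling, and the WT table lists 5 as rising and 2 as falling. At 3 hr limma called 5 of the 10 higher in S80A cells (USP2, USP12, OTUD1, OTUD4 and UBE2D3), against 29.2% of all genes, and none lower, against 17.7%. USP2 and USP12 lost the call with TMM scaling, which left 3, and USP2 with edgeR, which left 4, while DESeq2 called 5. At 0 hr 2 were higher (USP2 and OTUD1), against 20.1%, and none lower, against 10.6%. PELI1 and CYLD, a ligase and a deubiquitinase that act on NF-κB signalling, had no call between genotypes, at 0.06 and 0.34 log2 at 3 hr (adjusted p = 0.915 and 0.182). Of 30 cell cycle and DNA damage ubiquitin genes 6 were in the tables. At 3 hr limma called RNF2 higher in S80A cells, against 29.2% of all genes, and RNF168 and UHRF1 lower, against 17.7%. At 0 hr it called UHRF1 lower, at -1.60 log2 (adjusted p = 0.00348), against 10.6%, and none higher, against 20.1%. The LPS response of UHRF1 had no call, at -0.65 (adjusted p = 0.316).

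Genes of other ligase classes also stood in the tables. Of 23 genes on a list of HECT ligases 5 were in a table. HERC5, HERC6 and HUWE1 were counted on other lists. The limma interaction called NEDD4L higher, at 1.42 log2 (adjusted p = 0.00367), and NEDD4 lower, at -1.21 (adjusted p = 0.0260), in S80A cells. NEDD4L had 526 ± 31.0 scaled reads in S80A cells at 3 hr and 172 ± 8.32 at 0 hr, and 189 ± 20.9 in WT cells at 3 hr and 165 ± 5.44 at 0 hr (SD, n = 3). NEDD4 had 258 ± 37.4 in S80A cells at 3 hr and 219.6 ± 51.2 at 0 hr, and 544 ± 77.2 in WT cells at 3 hr and 197 ± 14.8 at 0 hr (SD, n = 3). Each of this pair of related ligases stood in 1 table only. Of 56 further RING and RBR ligases 11 were in a table, with 2 called higher and 1 lower in S80A cells at each time, and of 51 parts of cullin ligases 13 were, with 4 higher and 1 lower at 0 hr and 3 higher and 3 lower at 3 hr. Over all genes 20.1% were higher and 10.6% lower at 0 hr, and 29.2% and 17.7% at 3 hr. With edgeR and with DESeq2, 3 of the 11 RING and RBR ligases were lower at each time, and with edgeR 2 of the 13 cullin ligase parts were higher at each time. Of 29 genes on a list of other deubiquitinases and related proteases 3 were in a table, namely TNFAIP3, OTUB2 and SENP7, a SUMO protease. At 3 hr limma called TNFAIP3 and SENP7 higher in S80A cells, at 1.07 and 1.52 log2 (adjusted p = 0.00737 and 0.00190). OTUB2 had no call, at 0.61 (adjusted p = 0.148). At 0 hr limma called none of the 3, while DESeq2 and limma with the replicate block called TNFAIP3 higher.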

How the data were processed

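Per the labels' protocols, libraries came from a stranded TruSeq kit with poly(A) selection, and single-end reads of 75 bases were read on an Illumina NextSeq instrument. The submitters' processing notes name the build GRCh38 and the tools HISAT, StringTie, Cuffdiff, HTSeq, DESeq2 and FastQC, without versions. The sources used here do not give the annotation or the strand setting. The authors deposited 1 table per genotype, with log2 fold changes after LPS against before it, the p-value before and after adjustment, and a signal for each of 12 libraries. This deposited signal is a read count over 1 size factor per library: all values (100%) came out as whole reads to within 0.01 reads, with size factors of 0.834 to 1.29. The tables hold 2335 genes for WT and 2508 for S80A cells, all listed as changed by LPS, so counts between genotypes describe such genes and not the transcriptome.

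Genotype differences at 1 time were tested with limma on log2(signal + 1) over the 6 libraries of that time, and the LPS responses and their difference over all 12 libraries, with Benjamini-Hochberg adjustment over the 3281 genes and a threshold of 0.05. The log2(signal + 1) scale understates changes of genes with few reads, and groups with 1 to 3 reads got a ratio with a 95% counting interval. Count tests (edgeR, DESeq2) on the recovered whole reads were alternatives. Genes, lists and tests were chosen with earlier results of these data known. Values are given for the 2 largest rises and falls per family with a mean of at least 50 scaled reads, and the 6 smallest p-values per direction and comparison. Other members and the lists are given by counts and ranges, and genes named beyond this were named after their values were seen. Same-numbered libraries of the 2 genotypes deviated together from their group means at 0 hr (correlations of 0.188, 0.245 and 0.259 over genes), and at 3 hr these were 0.153, 0.196 and 0.0640. Same-numbered libraries of 1 genotype at the 2 times gave 0.343, 0.207 and 0.153 in WT cells and 0.299, 0.286 and 0.196 in S80A cells. Differently numbered ones gave -0.289 to 0.156. The limma fits left this pairing out, except where the replicate number was a block. Gene places were read from GENCODE release 29, in which 61 genes had 1 place and 34 overlapped a gene on the other strand, and promoters from RefSeq on GRCh38.p14. R 4.3.3, limma 3.58.1, edgeR 4.0.16, DESeq2 1.42.0, Python 3.11.15 and matplotlib 3.10.9 were used. The limma fits were tested on simulated data.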

Additional observations from a re-analysis of the deposited data

Results flagged for a closer look

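For 8 genes the interaction term of limma found a different LPS response in S80A than in WT cells, given here as the difference of the log2 responses, S80A minus WT (SE in the report), with the range of the adjusted p over the alternatives of each. The values were -1.58 for RNF168 (5.07e-08 to 0.0141), 2.14 for USP53 (5.22e-04 to 0.0407), 1.77 for RNF175 (7.38e-04 to 0.0399) and -1.28 for FBXL14 (0.00232 to 0.0442), which kept the call in each alternative that gave them a value. They were -2.98 for TRIM31 (0.00291 to 0.196), -1.47 for USP54 (0.00336 to 0.0649), 1.92 for USP43 (0.00907 to 0.105) and -1.59 for RNF217 (0.00324 to 0.108), which lost the call in at least 1. Each of the 8 stood in 1 of the authors' tables only, which selects for such differences. No outlier test was run on single libraries, since each group holds 3.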

How the results depend on the processing

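Counts of genes moved with the tool. EdgeR found 6 higher and 9 lower in S80A cells at 0 hr, 19 lower at 3 hr, and 4 and 9 genes changed the same way in the genotype that does not list them (of those listed in WT and in S80A alone). DESeq2 found 9 lower at 0 hr, 19 lower at 3 hr and 4 of those listed in WT alone, and TMM scaling also 4. With a pseudocount of 0.5, 3 responses were lower in S80A cells, and over the genes in both tables only, 0 were higher and 0 lower, since the genes called stand in 1 table. Without S80A replicate 1 at both times, chosen after seeing the data, 6 responses were higher. Leaving out 1 library at a time gave 3 to 9 higher and 2 to 5 lower at 0 hr, 10 to 18 higher and 6 to 13 lower at 3 hr, 2 to 5 higher and 3 to 5 lower responses, and 5 to 7 and 7 to 16 genes changed the same way. With the replicate block, 9 genes were higher and 5 lower at 0 hr, 15 and 12 at 3 hr, and 3 and 5 responses, so the pairing moved no count by over 1.5 times. At 0 hr the block ended the limma calls of RNF166, TRIM24 and USP51. At 3 hr same-numbered libraries of the 2 genotypes deviated together less than at 0 hr. There the block ended the calls of TRIM65, USP12-AS2 and USP2 (adjusted p = 0.0636, 0.0550 and 0.0594). It gained FBXO36 and TRIM16L at 0 hr and TRIM36 at 3 hr (adjusted p = 0.0421, 0.0271 and 0.0413). Of the values of single genes under all alternatives, 157 of the called ones lost their call and 646 kept it. Of the others, 34 gained a call while 1034 did not. These counts follow calls and not signs, and some values without a call changed sign. The difference of the RNF2 responses, 0.35 log2 in limma, ran from -0.18 to 0.71 over the alternatives. The causes were not tested. Depth limits TRIM31, TRIM72 and USP12-AS2, which had few reads.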
